A study of Mus musculus with 4 samples.

Results

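The family of miR-25, miR-32, miR-92 and miR-363 is the group of miRNAs that share 1 seed, the bases 2 to 8 counted from the 5′ end by which a miRNA recognises its targets. The rule took the entries of the deposited table named miR-25-3p, miR-32-5p, miR-92a-3p, miR-92b-3p and miR-363-3p, and it found all 5 among 942 mature miRNAs. The rule used names and no expression value, although earlier results of these data were known when it was set. Small RNAs of the brain cortex were sequenced from 4 mice of the B6C3 strain at 9 months of age. WT1 and WT2 were wild-type mice without the transgenes, and APP3 and APP4 were APPswe/PS1deltaE9 mice, called AD mice. In AD mice 2 transgenes are active in brain neurons, 1 for an amyloid precursor protein of mouse and human parts with the Swedish mutation and 1 for human presenilin 1 without its exon 9, so the model covers amyloid deposition and not every feature of the human disease. WT1 and APP4 were siblings (group 1), as were WT2 and APP3 (group 2). There were thus 2 mice for each genotype, and their sex and the day of library preparation are not given in the sources used here.

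MiRNAs of this family come from several loci. The miR-106b to miR-25 cluster lies within a gene of the replication machinery, the miR-17 to miR-92 cluster is an oncogenic polycistron active in dividing progenitor cells, and the miR-106a to miR-363 cluster is its copy on the X chromosome. miR-32 and miR-92b stand alone, and miR-92b is known from neural progenitor cells and the brain. A shared seed means a largely shared set of predicted targets, among them the cell cycle inhibitor Cdkn1c, while the bases after the seed differ and can add pairing to single targets.

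The mature sequences below are shown because the shared seed defines the family and the bases after it decide how well reads of the members can be told apart. They are RefSeq sequences of the mouse build GRCm38.p6, written 5′ to 3′, with the seed in capitals.
miR-92b-3p: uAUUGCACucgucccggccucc
miR-92a-3p: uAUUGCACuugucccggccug
miR-25-3p: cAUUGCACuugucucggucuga
miR-32-5p: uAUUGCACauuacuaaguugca
miR-363-3p: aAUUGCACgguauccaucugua

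Of the 942 entries, 754 matched a RefSeq mature sequence, and among these the seed AUUGCAC was carried by the 5 members alone. The reference held 1 further miRNA with this seed, miR-367-3p, which was not analysed here. With positions counted from 1 at the 5′ end and the base of the first-named miRNA written first, miR-92a-3p and miR-92b-3p differed at 2 of 21 positions, U10C and G21C. miR-25-3p and miR-92a-3p differed at 3 of 21 positions, C1U, U14C and U18C. The other members stood further apart, since miR-32-5p and miR-363-3p differed from each other at 9 of 22 positions and from miR-25-3p, miR-92a-3p and miR-92b-3p at 9 to 13. Base composition after the seed ranged widely, from 28.6% G and C in miR-32-5p over 42.9% in miR-363-3p, 50% in miR-25-3p and 69.2% in miR-92a-3p to 78.6% in miR-92b-3p. The methods of the study give at most 2 mismatches for counting tags, but also say that none was allowed against miRBase, and variants of each mature miRNA were counted. They do not say how a read near to both miR-92a-3p and miR-92b-3p, or to both miR-25-3p and miR-92a-3p, was placed. How far the split between these members depends on the counting is thus not known.

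The members were placed in the genome with the same RefSeq sequences and the GENCODE vM21 annotation. miR-92b-3p lies at chr3:89227126-89227147 on the minus strand, and its hairpin is outside annotated genes, 28 bp from Mtx1. miR-92a-3p has 2 copies, 1 at chr14:115044476-115044496 on the plus strand, in an exon of the long noncoding RNA Mir17hg, and 1 at chrX:52741854-52741874 on the minus strand, outside annotated genes. The reads of both copies are identical and were counted together. miR-25-3p lies at chr5:138165332-138165353 on the minus strand within Mcm7, a subunit of the replicative helicase. Its hairpin overlaps an annotated exon of Mcm7, and the type of transcript that holds this exon was not examined. miR-32-5p lies at chr4:56895272-56895293 on the minus strand in an intron of Tmem245, a membrane protein. miR-363-3p lies at chrX:52741697-52741718 on the minus strand, next to the second copy of miR-92a and outside annotated genes.

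The libraries held between 19048747 and 26085776 miRNA reads, which were 83.4% to 88.7% of the clean reads. Levels are given as reads per 1000000 miRNA reads (RPM), and 3 reads, taken as the floor, were worth 0.115 to 0.157 RPM. The 6 miRNAs fixed as markers of forebrain neurons were all present, at a summed 75234 to 83511 RPM, and none was at 0 in any mouse. The library of APP4 stood apart in the miR-200 and miR-182, miR-183 and miR-96 group of epithelial and sensory cells, with a summed 5862 RPM for 8 miRNAs against 576 to 1024 RPM in the other mice. Results that rest on APP4 are therefore also given for the other sibling pair.

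The family was a prominent seed group of the cortex and was carried mostly by miR-92b-3p. Its members summed to 13131, 14056, 15773 and 16230 RPM in WT1, WT2, APP3 and APP4. Both AD mice lay above both WT mice, with means of 16002 ± 323 RPM in AD and 13593 ± 654 RPM in WT (SD, n = 2 each). As a share of all miRNA reads the family made up 1.31% of WT1 and 1.41% of WT2 (95% Wilson intervals from 1.309% to 1.317% and from 1.401% to 1.410%), against 1.58% of APP3 and 1.62% of APP4 (from 1.572% to 1.583% and from 1.617% to 1.629%). Intervals of this kind cover counting error only and no difference between animals. Among 639 seeds of the matched miRNAs the family ranked at place 13 by reads in each of the 4 libraries.

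miR-92b-3p, the brain-enriched member, was the most abundant by more than 10-fold. Its level was 11501 RPM (WT1) and 12690 RPM (WT2) in wild-type mice and 13831 RPM (APP3) and 14630 RPM (APP4) in AD mice, which placed it between 15 and 18 among all miRNAs. WT1 was the lowest mouse and APP4 the highest, and the genotypes did not overlap. With TMM library sizes they did not overlap either, but APP3 was the highest, at 13808 RPM against 13340 RPM in APP4. Its share of the family reads was 87.6% and 90.3% in the WT mice and 87.7% and 90.1% in the AD mice, in the order WT1, WT2, APP3, APP4. Pooled over the mice this was 88.9%, beside a median of 82.3% for the most abundant member of the 14 seeds with at least 3 members and 1000 reads, of which 4 were more dominated by 1 member.

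miR-92a-3p, the last miRNA of the miR-17 to miR-92 polycistron, came next in level. It was at 970, 804, 1198 and 1014 RPM in WT1, WT2, APP3 and APP4. Both AD mice were above both WT mice with miRNA reads as the total, though not with TMM library sizes, and APP4 stood nearer to WT1 than to APP3. miR-25-3p, of the miR-106b to miR-25 cluster, was at 654 RPM (WT1) and 552 RPM (WT2) in wild-type mice and 733 RPM (APP3) and 574 RPM (APP4) in AD mice, and here the genotypes overlapped because APP4 lay below WT1. In each mouse miR-92a-3p exceeded miR-25-3p, by a ratio of 1.48 and 1.46 in WT1 and WT2 and of 1.63 and 1.77 in APP3 and APP4, so that the ratio was higher in both AD mice.

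The remaining members were scarce. miR-32-5p, which is processed from a Tmem245 intron, was at 5.44, 8.51, 10.02 and 10.9 RPM in WT1, WT2, APP3 and APP4, from 142, 188, 213 and 208 reads. WT1 was the low mouse, and the AD mice lay close together above WT2. miR-363-3p, of the X-linked cluster, rested on 11 reads in each WT mouse, 18 in APP3 and 16 in APP4, or 0.422, 0.498, 0.846 and 0.840 RPM. Both genotypes were above the floor and did not overlap, yet a difference of this size was within counting error. In order of level the members thus stood as miR-92b-3p, miR-92a-3p, miR-25-3p, miR-32-5p and miR-363-3p in every mouse. The ranges of neighbours over the 4 mice did not overlap, and the nearest were those of miR-92a-3p and miR-25-3p.

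**Figure D1:**
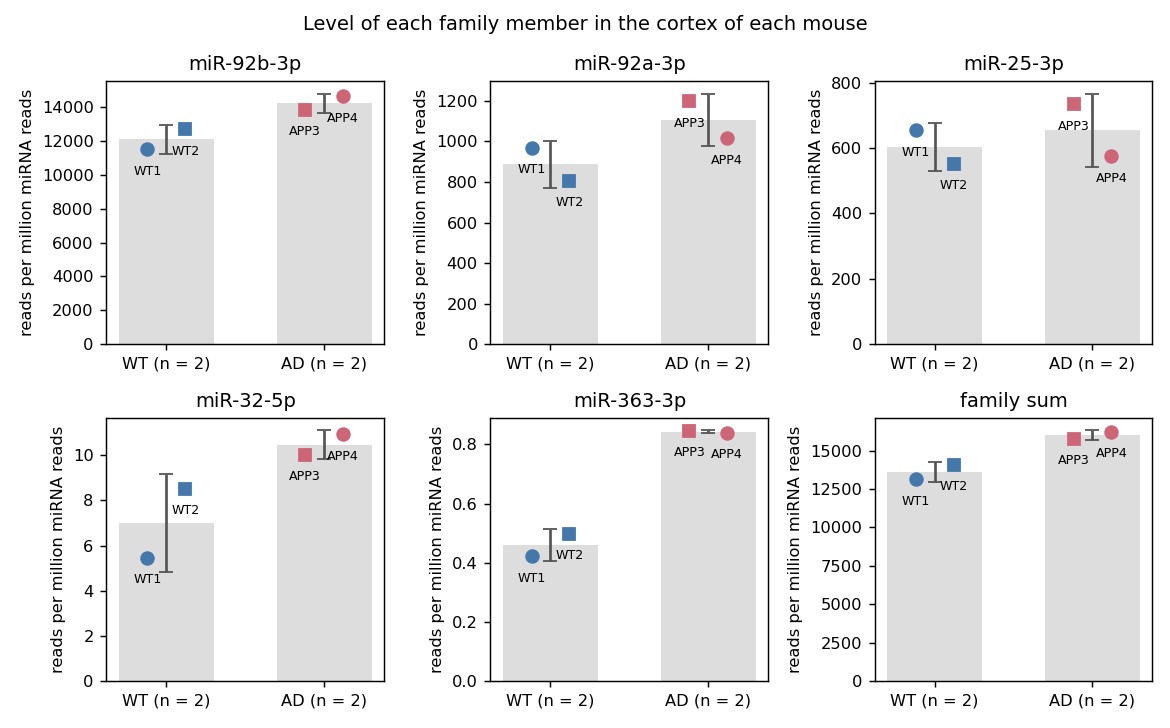
Levels of the 5 members and of their sum in RPM (vertical axes, each from 0) for WT and AD mice; points are single mice, bars are means and error bars are the SD of 2 mice. Both AD mice sit above both WT mice in every panel except miR-25-3p, where APP4 (574) lies under WT1 (654); with TMM library sizes, not drawn here, miR-92a-3p overlaps as well.

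The first comparison asked whether the family differed between the genotypes, with the mice as replicates. None of the 5 members passed edgeR's quasi-likelihood test, and neither did any of the 623 miRNAs tested (0% called at an adjusted p under 0.05, smallest adjusted p = 0.768 by edgeR). At an unadjusted p under 0.05 edgeR gave 36 miRNAs, or 5.78%, and no member of the family was among them. Without TMM, and also without WT2, miR-32-5p had an unadjusted edgeR p of 0.0455 and 0.0157, with adjusted p = 0.717 and adjusted p = 0.851. DESeq2's Wald test also called 0, with 28 at an unadjusted p under 0.05. With the sibling pair as a block edgeR called 2 miRNAs, neither of them a member.

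For miR-92b-3p the log2 fold change of AD over WT was 0.10 (SE 0.18, edgeR adjusted p = 0.972). For miR-92a-3p it was 0.18 (SE 0.22, edgeR adjusted p = 0.958). For miR-25-3p it was -0.02 (SE 0.24, edgeR adjusted p = 0.9999). The largest estimates belonged to the scarce members, at 0.46 for miR-32-5p (SE 0.23, edgeR adjusted p = 0.879) and 0.74 for miR-363-3p (SE 0.42, edgeR adjusted p = 0.929). The estimate of miR-32-5p rested on the WT mice, at 0.20 without WT1 and 0.79 without WT2. The median of the 5 members was 0.18 beside -0.02 over all 623 miRNAs, and 4 members were above 0 against 291 of the 623. A 1.18-fold difference, the ratio of the means of miR-92b-3p, was not detectable at these SEs, and an exact permutation test of 2 against 2 mice cannot go below p = 0.333.

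Both AD mice lay above both WT mice for 4 of the 5 members, all but miR-25-3p. Over the 623 miRNAs this was so for 27%, while 8.99% had both AD mice below both WT mice. The excess of higher miRNAs depended on the library total. With TMM library sizes, which set the bulk of miRNAs level between libraries, 14.9% lay above and 19.1% below. Under that scaling 3 of the 5 members kept both AD mice above both WT mice, namely miR-92b-3p, miR-32-5p and miR-363-3p. miR-92a-3p then overlapped, at 1054 RPM (WT1) and 813 RPM (WT2) in wild-type mice and 1196 RPM (APP3) and 925 RPM (APP4) in AD mice. The sum of the family did not overlap under either scaling, but the distance shrank, with TMM values of 14274, 14205, 15746 and 14799 RPM in WT1, WT2, APP3 and APP4. The log2 ratio of the genotype means of the sum was 0.24 with miRNA reads as the total and 0.10 with TMM. The TMM sizes moved every log2 fold change of APP4 over WT1 by -0.25 and of APP3 over WT2 by -0.02.

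**Figure D2:**
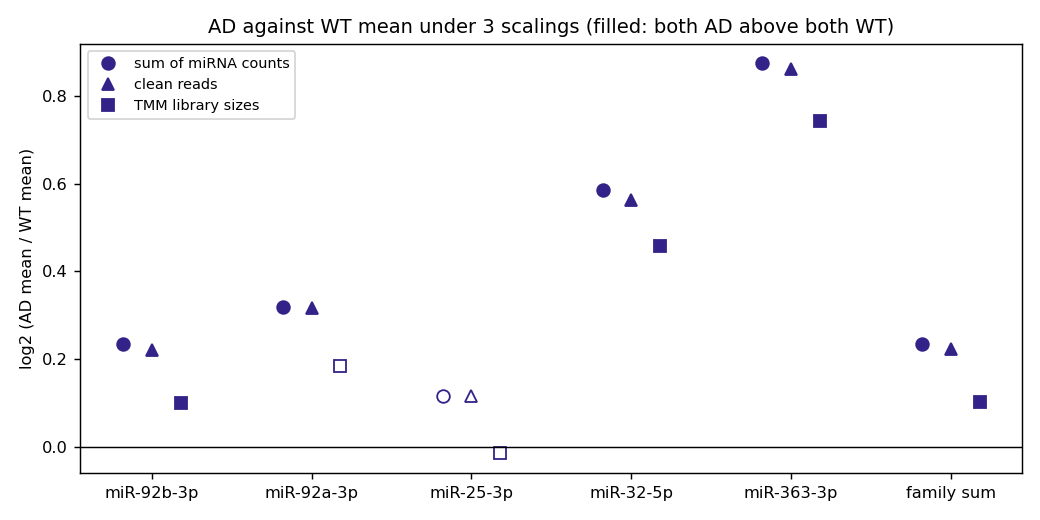
Log2 ratio of the AD mean to the WT mean (vertical axis) of each member and of their sum when reads are divided by the miRNA reads (circles), by the clean reads (triangles) or by TMM library sizes (squares); filled symbols mark both AD mice above both WT mice. TMM lowers each ratio, takes miR-25-3p to -0.02 and leaves miR-92a-3p overlapping.

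The second comparison took the sibling pairs one at a time with Fisher's exact test on the reads, which compares 2 libraries and not the genotypes. A miRNA was called at a false discovery rate (FDR) under 0.05 and at least 1.5-fold. In group 1, APP4 against WT1, 4 of the 5 members passed the FDR alone, where 40.3% of all miRNAs did, and 1 was called, where 11.6% were. In group 2, APP3 against WT2, 3 of the 5 passed the FDR, where 36% did, and 0 were called, where 6.81% were. At these depths the test passes differences of a few percent in abundant miRNAs, so a passed FDR says little about their size.

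The called member was miR-32-5p in group 1, which was 2.004-fold higher in APP4 than in WT1 (95% interval of counting error 1.62 to 2.48, Fisher's exact test, FDR = 5.07e-10). In group 2 it was 1.18-fold, with an interval from 0.967 to 1.43 (Fisher's exact test, FDR = 0.248). WT2 was itself 0.64 above WT1 on the log2 scale, while the AD mice differed by 0.12, so the 2 WT mice were as far apart as the genotype means, which differed by 0.62.

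miR-92b-3p was higher in the AD sibling of both pairs, by 0.35 on the log2 scale in group 1 (SE 0.0038, Fisher's exact test, FDR of 0 at the precision of the computation) and by 0.12 in group 2 (SE 0.0038, Fisher's exact test, FDR = 4.02e-235). Both were under 1.5-fold, and with TMM sizes they were 0.09 and 0.11. With miRNA reads as the total the WT mice differed by 0.14 and the AD mice by 0.08. On that scale the difference of group 2 was smaller than that between the WT mice. miR-363-3p was 0.97 higher in group 1 (SE 0.55, Fisher's exact test, FDR = 0.167) and 0.74 higher in group 2 (SE 0.54, Fisher's exact test, FDR = 0.383), and did not pass in either.

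The members from the polycistrons gave unlike values in the pairs. miR-92a-3p was 1.05-fold in group 1 (Fisher's exact test, FDR = 9.05e-06) and 1.49-fold in group 2 (Fisher's exact test, FDR of 0 at the precision of the computation), just under the limit of 1.5-fold. With TMM sizes its value in group 1 turned from 0.07 to -0.19 on the log2 scale. The log2 fold change of miR-25-3p was -0.19 in group 1 (SE 0.02, Fisher's exact test, FDR = 8.2e-26) and 0.41 in group 2 (SE 0.02, Fisher's exact test, FDR = 1.31e-121). Both miRNAs were higher in WT1 than in WT2 and higher in APP3 than in APP4, by 0.27 and 0.24 for miR-92a-3p and by 0.24 and 0.35 for miR-25-3p. For miR-25-3p these distances within a genotype exceeded the 0.11 between the genotype means.

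The sum of the family was 0.31 higher on the log2 scale in group 1 and 0.17 higher in group 2. Without miR-92b-3p the other members summed to 1629 RPM (WT1) and 1366 RPM (WT2) in wild-type mice and 1942 RPM (APP3) and 1600 RPM (APP4) in AD mice, with -0.03 in group 1 and 0.51 in group 2. WT1 and APP4, the siblings of group 1, were alike in this sum, and the genotypes overlapped.

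**Figure D3:**
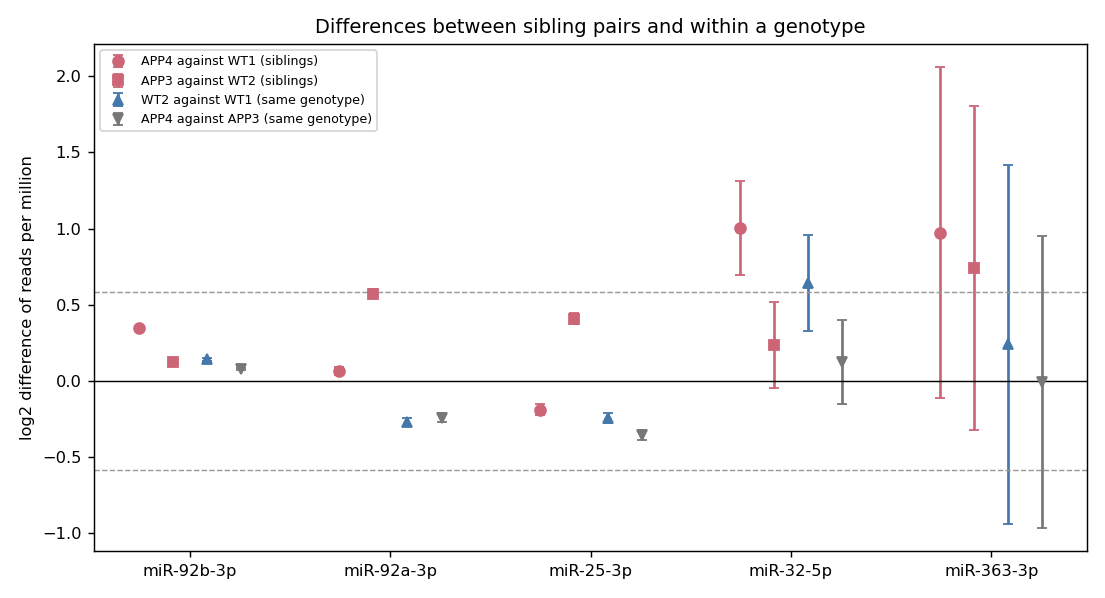
Log2 difference of RPM (vertical axis) of each member between siblings (red) and between mice of 1 genotype (blue for WT2 against WT1, grey for APP4 against APP3); error bars are 95% intervals of counting error and dashed lines mark 1.5-fold. miR-32-5p in group 1 (1.003) is the only sibling difference past the dashed line whose interval excludes 0, and the WT mice differ by 0.64 for the same miRNA.

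The spread of the members over the mice was set beside that of other abundant miRNAs. Over 252 miRNAs of at least 50 RPM the median range of log2 RPM over the 4 mice was 0.46. The range was 0.35 for miR-92b-3p, with 66 of the 252 smaller, 0.41 for miR-25-3p, with 100 smaller, and 0.57 for miR-92a-3p, with 173 smaller. The first 2 were thus below the median and miR-92a-3p above it. The scarce members, which are under 50 RPM and carry more counting error, had ranges of 1.003 for miR-32-5p and 0.98 for miR-363-3p. The median size of a difference between siblings was 0.26 in group 1 and 0.19 in group 2, beside 0.24 for WT2 against WT1 and 0.23 for APP4 against APP3, so siblings of unlike genotype were about as far apart as mice of the same genotype.

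The shares of miR-92b-3p, miR-92a-3p and miR-25-3p in the family reads overlapped between the genotypes. miR-92a-3p took 7.38% of the family reads in WT1 and 7.59% in APP3, but 5.72% in WT2 and 6.25% in APP4. miR-25-3p took 4.98% in WT1, 4.65% in APP3, 3.93% in WT2 and 3.54% in APP4. WT1 and APP3, which were not siblings, thus had the larger shares of both miRNAs from the polycistrons, and WT2 and APP4 the larger share of miR-92b-3p. The ratio of miR-92b-3p to miR-92a-3p was accordingly 11.9 in WT1 and 11.55 in APP3, against 15.8 in WT2 and 14.4 in APP4. These ratios are taken within a library and do not depend on its total. miR-32-5p took 0.0415% in WT1 (95% Wilson interval 0.0352% to 0.0489%), and 0.0606%, 0.0635% and 0.0673% in WT2, APP3 and APP4. miR-363-3p took 0.00321% and 0.00354% in WT1 and WT2, against 0.00537% and 0.00518% in APP3 and APP4. The shares of these scarce members were higher in both AD mice, as was the ratio of miR-92a-3p to miR-25-3p given above. Every other ratio computed between members or to a cluster partner overlapped between the genotypes. How often a ratio of miRNAs keeps the genotypes apart was not counted over all miRNAs.

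A hairpin gives rise to 2 mature miRNAs, and usually the strand of 1 arm is kept in Argonaute. The hairpins of miR-92b and miR-32 are shown because they were the most one-sided and the least one-sided of the family's hairpins with over 100 reads in each mouse, and because the family strand, in capitals, comes from opposite arms. Both are RefSeq hairpins of GRCm38.p6, at chr3:89227116-89227198 and chr4:56895229-56895298 on the minus strand, written 5′ to 3′.
mir-92b: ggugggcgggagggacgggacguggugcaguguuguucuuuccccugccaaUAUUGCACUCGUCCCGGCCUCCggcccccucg
mir-32: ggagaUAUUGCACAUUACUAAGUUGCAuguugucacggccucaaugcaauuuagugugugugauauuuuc

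The mir-92b hairpin gave 99.97% of its reads from the family arm. Its other arm, miR-92b-5p, was at 3.68, 3.49, 2.82 and 4.62 RPM in WT1, WT2, APP3 and APP4, an order that miR-92b-3p did not share. Among 221 hairpins with both arms listed and at least 100 reads in each library the median share of the more abundant arm was 96.8%, and 13 of them were above mir-92b. The mir-25 hairpin gave 99.5% to 99.8% from miR-25-3p. miR-92a-3p made up 99.7% to 99.9% of its sum with miR-92a-1-5p, the other arm of the chromosome 14 copy, while miR-92a-2-5p was not analysed here.

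The mir-32 hairpin was less one-sided, with 92.8% of its reads from miR-32-5p in WT1 and 89.1% in WT2 (95% Wilson intervals from 87.6% to 95.9% and from 84.2% to 92.6%), and 88.0% in APP3 and 94.5% in APP4 (from 83.3% to 91.5% and from 90.7% to 96.9%). These intervals overlapped between the genotypes. miR-32-3p rested on 11, 23, 29 and 12 reads in WT1, WT2, APP3 and APP4 and was highest in the siblings of group 2. miR-363-5p had 1 read, in WT2, and 0 in the other mice, which allows up to 0.115 to 0.157 RPM there.

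Of the 4 other arms tested by edgeR, both AD mice were above both WT mice for 1, beside 27% of the 623 miRNAs. That arm was miR-25-5p, the strand opposite miR-25-3p. It was at 1.61 RPM (WT1) and 1.90 RPM (WT2) in wild-type mice and 2.35 RPM (APP3) and 2.68 RPM (APP4) in AD mice, from 42 to 51 reads. The AD mice did not overlap the WT mice, although the reads differed by 9 at most. miR-25-5p was 1.66-fold higher in APP4 than in WT1 (Fisher's exact test, FDR = 0.0391), while miR-25-3p was lower in the same pair. It was thus called in group 1, where 11.6% of all miRNAs were. Its log2 value there was 0.73 before the TMM shift of -0.25, beside a limit of 0.585. In group 2 it was 1.23-fold (Fisher's exact test, FDR = 0.576). Over the 4 mice edgeR gave 0.38 for miR-25-5p (SE 0.26, adjusted p = 0.929). Of the 5 listed other arms, 4 were tested by edgeR and 0 passed.

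**Figure D4:**
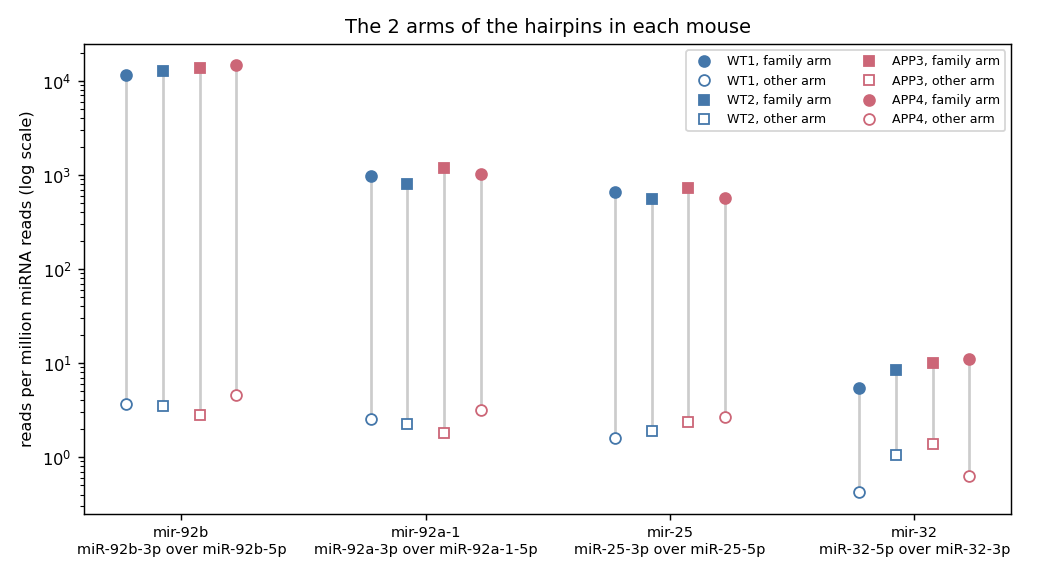
RPM (log scale) of the family arm (filled) and the other arm (open) of 4 hairpins in each mouse, joined by a line. The gap is widest for mir-92b and narrowest for mir-32, and the open symbols of mir-25 range from 1.61 in WT1 to 2.68 in APP4.

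The cluster partners were compared because miRNAs of a polycistron are cut from 1 transcript. In the miR-106b to miR-25 cluster, which spans 498 bp, all 4 partners were tested by edgeR and 0 passed. miR-93-5p, its most abundant partner and a miRNA of the miR-17 seed, was at 336, 333, 347 and 398 RPM in WT1, WT2, APP3 and APP4. APP4 was the high mouse for miR-93-5p and among the low mice for miR-25-3p, so that the ratio of miR-25-3p to miR-93-5p was 1.94 and 1.66 in the WT mice but 2.11 in APP3 and 1.44 in APP4. In group 1, where 11.6% of all miRNAs were called, 2 of the 4 partners were called higher in APP4, miR-106b-5p at 1.544-fold (Fisher's exact test, FDR = 1.37e-13) and miR-93-3p at 1.543-fold (Fisher's exact test, FDR = 0.00733). Their log2 values were 0.627 and 0.626 before the TMM shift of -0.25, beside a limit of 0.585. With TMM sizes both thus fell under the limit. In group 2, where 6.81% were called, the count was 0 of 4.

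In the miR-17 to miR-92 cluster, which spans 836 bp, 10 partners were in the table and 8 were tested by edgeR, of which 0 passed. miR-92a-3p exceeded its partners by a wide margin. miR-17-5p, the founder of the miR-17 seed, was at 15.3 RPM (WT1) and 15.8 RPM (WT2) in wild-type mice and 18.5 RPM (APP3) and 18.3 RPM (APP4) in AD mice, and miR-92a-3p was 63.2, 51.0, 64.8 and 55.4 times as high in these mice. The X-linked copy of miR-92a adds to the numerator of this ratio. miR-19b-3p, also made from both clusters, was at 20.2, 9.92, 9.45 and 20.8 RPM in WT1, WT2, APP3 and APP4, alike within siblings and unlike miR-92a-3p. miR-20a-5p was at 10.8 RPM (WT1) and 10.9 RPM (WT2) in wild-type mice and 10.6 RPM (APP3) and 14.1 RPM (APP4) in AD mice. In group 1 miR-17-3p and miR-18a-5p, 2 of the 10 tested, were called higher in APP4 beside 11.6% of all miRNAs. In group 2 the count was 0 of the 9 tested, beside 6.81%.

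miR-18a-5p was the partner with the smallest edgeR p and was named after its values were seen. It rested on 8 and 10 reads in WT1 and WT2 and on 21 and 20 reads in APP3 and APP4. Both AD mice were above both WT mice, as for 27% of the 623 miRNAs and for miR-17-5p and miR-19a-3p of the same cluster. Its log2 fold change was 1.29 (SE 0.43, edgeR adjusted p = 0.768). edgeR's unadjusted p was 0.0185, where 5.78% of the 623 miRNAs were under 0.05. In the miR-106a to miR-363 cluster, which spans 875 bp, 4 of 8 listed partners were in the table, 1 was tested by edgeR and 0 were called in any test. miR-20b-5p had 4 reads in each WT mouse, 8 in APP3 and 3 in APP4, and miR-106a-5p had 0 reads in both WT mice, 3 in APP3 and 1 in APP4, so the X-linked cluster was near the limit of detection in the cortex, miR-363-3p included.

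**Figure D5:**
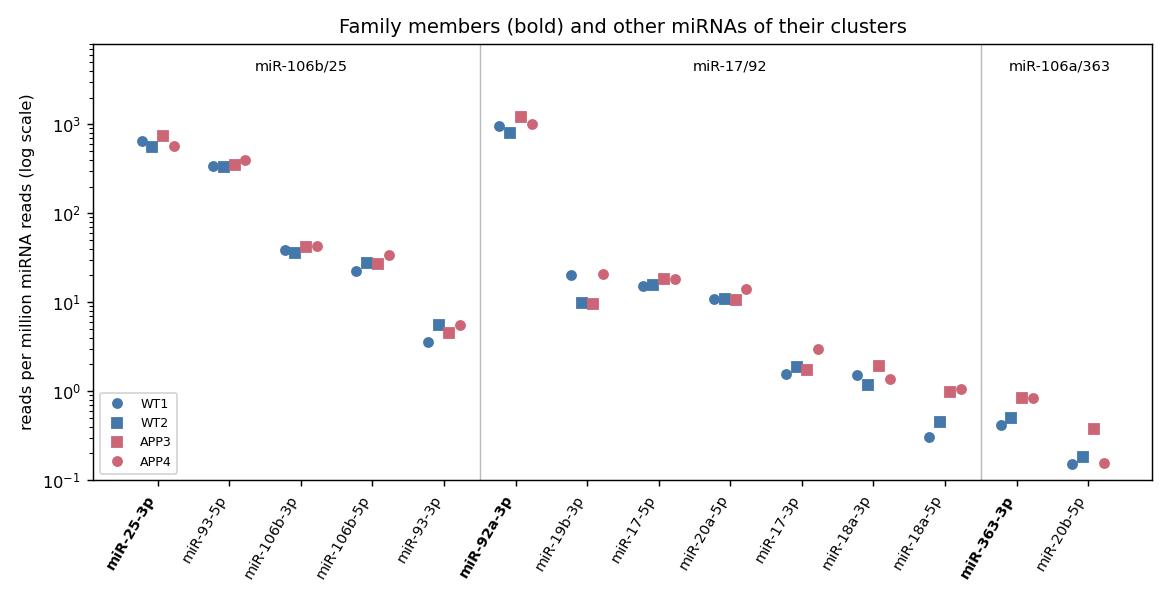
RPM (log scale) of miR-25-3p, miR-92a-3p and miR-363-3p (bold) and of the partners with the most reads in their clusters, with 1 point for each mouse. miR-92a-3p stands far above its partners, and miR-363-3p and miR-20b-5p lie under 1 RPM in all 4 mice.

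The patterns over the mice were compared by the root mean square difference of log2 RPM centred over the 4 mice, among 249 miRNAs of at least 50 RPM. Nearest to miR-92b-3p were miR-16-5p at 0.037, miR-300-3p at 0.040 and miR-136-3p at 0.050, beside a median of 0.18. miR-16-5p, which belongs to another seed family, was at 7624, 8845, 9468 and 9565 RPM in WT1, WT2, APP3 and APP4, and so had the same order of mice. Nearest to the sum of the family were miR-300-3p at 0.032, miR-16-5p at 0.044 and miR-154-5p at 0.054. These were picked as the smallest differences, so pairs of members are set beside the medians instead. From miR-92b-3p the difference was 0.19 to miR-92a-3p and 0.21 to miR-25-3p, beside its median of 0.18. Between miR-25-3p and miR-92a-3p it was 0.11, beside a median of 0.26 for each of them. Likeness of this kind rests on 4 libraries that share their totals.

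Since members of the family are also found in blood and vessel cells, miRNAs of other cell types were set beside them, and none of the listed markers was at 0 in any mouse. The 5 red blood cell miRNAs summed to 4017 RPM (WT1) and 4658 RPM (WT2) in wild-type mice. In AD mice they summed to 4077 RPM (APP3) and 3242 RPM (APP4). Most of this was miR-486-5p, at 3900 RPM in WT1 and 3053 RPM in APP4. miR-451a of the same list was instead 1.60-fold higher in APP4 than in WT1 (Fisher's exact test, FDR = 3.27e-62). Over the 4 mice edgeR gave log2 fold changes of -0.39 for miR-486-5p, -0.05 for miR-451a and 0.003 for miR-486-3p. For miR-144-5p and miR-144-3p it gave 0.21 and 0.35. The 5 miRNAs of white blood cells and microglia summed to 438, 559, 679 and 597 RPM in WT1, WT2, APP3 and APP4, mostly miR-150-5p. Like the family sum they were higher in both AD mice, but with TMM sizes APP4, at 544 RPM, lay under WT2, at 565 RPM. The 2 endothelial miRNAs, led by miR-126-5p, ranged from 7322 to 9135 RPM and overlapped, while miR-143-3p, of smooth muscle, ranged from 16628 to 24328 RPM and was lower in both AD mice. The other smooth muscle miRNA, listed here as miR-145-5p, stands in the table as miR-145a-5p, which was seen after the list was matched. It was at 164 and 152 RPM in the WT mice and at 112 and 150 RPM in APP3 and APP4, also lower in both AD mice (log2 fold change -0.42, SE 0.22, edgeR adjusted p = 0.909). The 4 oligodendrocyte miRNAs, led by miR-338-3p, ranged from 1904 to 2275 RPM and were also higher in both AD mice, but not with TMM sizes. The 5 of choroid plexus and ciliated cells, led by miR-204-5p, ranged from 3345 to 4701 RPM. In bulk cortex, fewer cells of a type and less miRNA in each cell cannot be told apart, and the part of these cells in the levels of the family was not tested.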

How the data were processed

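Small RNAs of 4 cortices were sequenced by the authors, who kept clean reads, matched them to miRBase 19, counted mature and variant reads for each miRNA and used sequences of 18 to 35 bases for genome mapping. The authors deposited raw counts of 942 mature miRNAs, and beside them columns headed TPM that hold RPM of clean reads, which served here only as an alternative total. The submitters' processing notes name CASAVA 1.8 and mm9, the paper GRCm38; the deposited table has no coordinates.

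Counts were divided by the miRNA reads of each library. Genotypes were tested over 623 miRNAs by the quasi-likelihood test of edgeR 4.0.16 under R 4.3.3 (TMM sizes after filterByExpr, Benjamini-Hochberg adjustment over all tested), with DESeq2 1.42.0 as an alternative. Sibling pairs were tested by Fisher's exact test, 2-sided, from scipy 1.17.1 over miRNAs with a read in either library. Log2 fold changes of a pair had 0.5 read added, with an SE of counting error. The pairing comes from the paper. Siblings deviated together from the genotype means only weakly (r = 0.23 over 252 miRNAs, no test), and for miR-92a-3p and miR-25-3p they deviated in opposite directions. The labels give genotype, strain, tissue and age but no batch, so edgeR's p-values measure the spread between these libraries. Those of Fisher's exact test cover counting error only. Both tests were tested on simulated data.

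Named were the members, the other arms, the cluster partners with most reads, the 3 miRNAs nearest in pattern to miR-92b-3p and the sum, and the most abundant miRNA of each marker list. For the epithelial list this was miR-182-5p, at 407 to 805 RPM in 3 mice and 3833 RPM in APP4; for forebrain neurons it was miR-9-5p, at 29300 to 36670 RPM. edgeR called 0 miRNAs of every marker list. Fisher's exact test called 3 of 5 red cell and 2 of 5 white cell miRNAs in group 1 (11.6% of all miRNAs). It also called 1 of 5 choroid plexus and 8 of 8 epithelial miRNAs there. In group 2 (6.81% of all miRNAs) it called 0 of 5 red cell and 1 of 5 white cell miRNAs. There 1 of 5 choroid plexus and 4 of 8 epithelial miRNAs were called too. In both groups it called 0 of the endothelial, oligodendrocyte and neuronal lists. The smooth muscle list, with 1 of its 2 miRNAs matched, also had 0. Members and lists were chosen with earlier results of these data known.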

Additional observations from a re-analysis of the deposited data

Results flagged for a closer look

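miR-25-3p moved in opposite directions in the sibling pairs, with a log2 fold change of -0.19 in APP4 against WT1 and 0.41 in APP3 against WT2. Each pair is 1 AD mouse and 1 WT mouse, so whether the pairs differ was not tested.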

How the results depend on the processing

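With 2 mice for each genotype, counts of called miRNAs depended on single mice. edgeR called 0 miRNAs over 4 mice, 2 with the sibling pair as a replicate block, and 0 to 21 with 1 mouse left out (3 without WT1, 0 without WT2, 21 without APP3, 5 without APP4), where the lone mouse of a genotype was assumed to vary like the others; the cause was not tested. The block changed no call of a member. The genotype estimate of miR-25-3p changed sign from -0.02 to 0.12 without TMM, 0.017 without the filter on low counts, 0.0053 with DESeq2 size factors and 0.010 with DESeq2's Wald test, and ranged from -0.28 to 0.19 with 1 mouse left out. That of miR-92a-3p ranged from -0.015 to 0.37, the lowest without APP3, that of miR-32-5p from 0.20 (without WT1) to 0.79 (without WT2), that of miR-92b-3p from 0.073 to 0.15 (without WT2) and that of miR-363-3p from 0.66 to 0.84. The value of miR-92a-3p in APP4 against WT1 turned to -0.19 with TMM sizes. In APP4 against WT1 the 104 miRNAs called became 32 when counts were scaled to 1000000 reads, 53 at 10 RPM or more, 65 with Bonferroni adjustment and 50 at a limit of 2-fold, and the called member, miR-32-5p, was lost with scaled counts (0 called). In APP3 against WT2 the 61 called became 23, 30, 34 and 23 under the same settings. The log2 ratio of the family sum was 0.24, 0.10 with TMM, and 0.19 to 0.29 with 1 mouse left out. Members with both AD mice above both WT mice, a count chosen after seeing the data, numbered 4, and 3 with TMM sizes. Leaving out 1 mouse can only keep or raise this count (4 to 5), so it does not test the count. For miR-363-3p and the other arms the number of reads set the limit.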
